A study of Mus musculus with 19 samples.

Results

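The 32 genes described here encode the enzymes that build cholesterol and fatty acids, together with the proteins that switch this synthesis on and off. They were taken by symbol from a table of 38887 mouse genes, and all 32 had a row. By role they were 7 enzymes of the mevalonate arm (Acat2, Hmgcs1, Mvk, Pmvk, Mvd, Idi1, Fdps), 11 enzymes from squalene to cholesterol (Fdft1, Sqle, Lss, Cyp51, Tm7sf2, Msmo1, Nsdhl, Hsd17b7, Ebp, Sc5d, Dhcr7), 6 regulators and sterol carriers (Srebf1, Srebf2, Scap, Insig1, Insig2, Stard4) and 8 genes of fatty acid synthesis, elongation and desaturation (Acly, Acaca, Fasn, Scd1, Scd2, Elovl6, Fads1, Fads2). The list does not hold every gene of either pathway.

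RNA was sequenced from myeloid-derived suppressor cells (MDSC) of mouse spleen, in 19 libraries of 4 groups. M-MDSC, the monocyte-like form, were isolated as CD11b+Ly6ChighLy6G- cells: 5 libraries from newborn mice aged 7 days and 3 from adult mice aged 6 to 8 weeks. PMN-MDSC, the neutrophil-like form, were isolated as CD11b+Ly6CintLy6G+ cells: 5 libraries from newborns and 6 from adults of the same ages. The labels describe the isolation in different ways: one protocol text has CD11b beads and then a sort for both forms, another has Ly6G beads and columns for PMN-MDSC and a sort for M-MDSC. Which libraries were made which way is not given there. No treatment, transgene or strain is named in the labels. The study's title places the question in the short-lived accumulation of these cells in newborns.

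Cholesterol is made from acetyl-CoA through mevalonate, farnesyl diphosphate and squalene, and fatty acids from the same acetyl-CoA through malonyl-CoA. Both pathways are switched on by the SREBP transcription factors, which are held in the endoplasmic reticulum by the INSIG proteins while sterols are plentiful and are carried to the Golgi by SCAP when sterols fall. Genes of this system, Insig1 among them, therefore typically rise together when sterols are depleted. Dividing cells draw on both pathways for new membrane, and stearoyl-CoA desaturase makes the monounsaturated fatty acids of membranes and lipid droplets.

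Libraries differed in ways that touch every result below. The labels give 2 batches, present in each group, with 827744 to 2965896 total counts in the 10 libraries of batch 1 and 14026193 to 45135933 in the 9 of batch 2. A count of 3, taken as the limit for a gene with no reads, lay between 0.990 and 3.29 CPM for batch 1 libraries and between 0.0601 and 0.197 CPM for batch 2 libraries, covering counting error alone. CPM are counts scaled to library size, with TMM factors. The labels do not tie replicates to animals, and a p-value here reflects variation among libraries that may be technical. Of the PMN-MDSC libraries, 5 of batch 1 (adult replicates 1, 2 and 3, newborn replicates 2 and 3) each resembled 1 library of batch 2 (adult replicates 32, 33 and 34, newborn replicates 37 and 38). A chi-square comparison of their counts, divided by its degrees of freedom, came to 2.38 to 6.29 within these pairs and to 6.89 to 19.7 in the 10 remaining cross-batch combinations of the same groups. Combinations within a batch came to 5.35 to 84.4, so the lowest of these lay under the highest matched pair. The measure also grows with depth, which differed among the libraries. Deviations of libraries from the mean of their group and batch correlated at r = 0.326 to 0.512 across genes within the pairs. In the other cross-batch combinations they correlated at -0.359 to 0.127. Each mean covered 2 or 3 libraries, so these values mirror one another and the contrast is partly set by the centring. The pairs were also picked from these same data. The labels do not say whether a pair is the same RNA sequenced again, and differences beyond sampling noise do not show that it is not; if it is, the PMN-MDSC libraries come from 3 newborn and 3 adult samples. The libraries were kept apart, and each count of called members in the age and cell type comparisons is also given with the 5 pairs summed. Kdm5d, on the Y chromosome, was detected in all 10 newborn libraries and had 0 counts in each of the 9 from adults, while Xist was detected in all 19, so age and the sex mix of the mice changed together and cannot be told apart.

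Marker genes moved with age as well. The summed level of 12 cell division genes was 1730 to 2250 CPM in newborn PMN-MDSC, against 191 to 322 CPM in adult PMN-MDSC, and 1810 to 2990 CPM in newborn M-MDSC, against 166 to 226 CPM in adult M-MDSC. The 10 neutrophil markers summed to 86700 to 96100 CPM in newborn PMN-MDSC, against 8860 to 9660 CPM in adult PMN-MDSC, and to 2630 to 12800 CPM in newborn M-MDSC, against 628 to 1040 CPM in adult M-MDSC. Ly6g, the defining marker of the PMN-MDSC sort, was present in every PMN-MDSC library, at 176 to 245 CPM in newborns and 12.1 to 24.7 CPM in adults. It was at most 1.85 CPM in newborn M-MDSC and 0.830 CPM in adult M-MDSC. The 7 B cell markers detected summed to 535 to 806 CPM in newborn PMN-MDSC, against 3240 to 5150 CPM in adult PMN-MDSC, and to 153 to 262 CPM in newborn M-MDSC, against 762 to 1970 CPM in adult M-MDSC. The sums of the 8 monocyte markers were closer between the ages, at 958 to 1160 CPM in newborn and 923 to 1400 CPM in adult PMN-MDSC, and 3660 to 4690 CPM in newborn and 4780 to 5570 CPM in adult M-MDSC. The M-MDSC ranges did not overlap. By the edgeR test described below, 2 of the 8 were called higher and 4 lower in newborn PMN-MDSC, and 0 higher and 3 lower in newborn M-MDSC. Over all genes tested, 47.7% were called in PMN-MDSC and 30.2% in M-MDSC. Erythroid markers (7 genes) summed to 317 to 430 CPM in newborn PMN-MDSC, against 16.3 to 50.2 CPM in adult PMN-MDSC, and to 0.281 to 228 CPM in newborn M-MDSC, against 9.32 to 25.7 CPM in adult M-MDSC, where Klf1 was at 0. Red pulp macrophage markers (7 genes) summed to 1020 to 1310 CPM in newborn and 999 to 2350 CPM in adult PMN-MDSC, and to 209 to 294 CPM in newborn and 373 to 538 CPM in adult M-MDSC. Eosinophil markers (5 genes) summed to 251 to 668 CPM in newborn PMN-MDSC, against 63.7 to 123 CPM in adult PMN-MDSC, and to 39.0 to 170 CPM in newborn M-MDSC, against 10.4 to 24.9 CPM in adult M-MDSC, and Epx was at 0 in both adult groups. T and NK cell markers (8 genes) summed to 26.4 to 45.7 CPM in newborn and 26.3 to 75.3 CPM in adult PMN-MDSC, and to 17.5 to 51.4 CPM in newborn and 71.3 to 176 CPM in adult M-MDSC. Single markers did not all follow these sums. In newborns of each cell type, 2 eosinophil markers were called higher and 1 lower. Red pulp macrophage markers called lower were 3 in PMN-MDSC and 6 in M-MDSC, and T and NK cell markers 2 and 6. From these 2 lists, 0 were called higher. Of the erythroid markers, 6 were called higher in PMN-MDSC and 0 in M-MDSC. The part of cell division and of other cell types in the results below was not tested. In these bulk samples, fewer cells of a type and less RNA per cell cannot be told apart.

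The first promoter that follows, of Hmgcs1, is shown as the sole member window that held the sterol response element searched for; Hmgcs1 itself was not called by age. The other 4 belong to genes on which the age comparison turns: Msmo1 and Cyp51, enzymes of lanosterol demethylation that moved in opposite directions with age in PMN-MDSC; Insig1, the sterol-regulated brake; and Fasn, whose age difference depended on the cell type. Each is the 300-base RefSeq window on build GRCm38.p6, read 5′ to 3′, and capitals mark matches to TCACNCCAC (a sterol response element), CCAAT (the NF-Y box) and GGGCGG (the Sp1 box) on either strand.
Hmgcs1 (chr13:119690101-119690400, plus strand): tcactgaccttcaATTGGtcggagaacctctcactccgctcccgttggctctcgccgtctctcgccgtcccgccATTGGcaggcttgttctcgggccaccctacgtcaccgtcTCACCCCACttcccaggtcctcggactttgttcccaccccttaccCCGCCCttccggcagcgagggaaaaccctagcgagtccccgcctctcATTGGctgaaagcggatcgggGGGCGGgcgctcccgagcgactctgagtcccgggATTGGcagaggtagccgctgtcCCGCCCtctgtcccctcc
Msmo1 (chr8:64733529-64733828, minus strand): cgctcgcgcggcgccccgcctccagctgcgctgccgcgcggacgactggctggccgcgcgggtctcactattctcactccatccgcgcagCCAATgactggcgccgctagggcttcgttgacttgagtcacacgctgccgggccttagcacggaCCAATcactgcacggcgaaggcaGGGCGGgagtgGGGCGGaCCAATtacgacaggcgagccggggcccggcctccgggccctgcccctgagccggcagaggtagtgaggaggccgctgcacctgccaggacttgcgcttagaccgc
Cyp51 (chr5:4104648-4104947, minus strand): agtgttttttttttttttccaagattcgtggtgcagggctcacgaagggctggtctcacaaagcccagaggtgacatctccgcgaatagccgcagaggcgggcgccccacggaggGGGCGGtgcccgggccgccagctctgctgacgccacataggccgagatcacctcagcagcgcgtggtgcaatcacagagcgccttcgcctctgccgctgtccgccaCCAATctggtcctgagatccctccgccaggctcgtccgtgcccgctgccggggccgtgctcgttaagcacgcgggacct
Insig1 (chr5:28071162-28071461, plus strand): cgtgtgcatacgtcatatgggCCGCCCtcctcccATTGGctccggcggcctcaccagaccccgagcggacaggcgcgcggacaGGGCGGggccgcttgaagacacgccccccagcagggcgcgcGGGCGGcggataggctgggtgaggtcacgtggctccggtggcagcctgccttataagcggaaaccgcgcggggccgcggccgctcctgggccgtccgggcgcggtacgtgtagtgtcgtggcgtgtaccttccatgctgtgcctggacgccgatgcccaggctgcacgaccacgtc
Fasn (chr11:120824498-120824797, minus strand): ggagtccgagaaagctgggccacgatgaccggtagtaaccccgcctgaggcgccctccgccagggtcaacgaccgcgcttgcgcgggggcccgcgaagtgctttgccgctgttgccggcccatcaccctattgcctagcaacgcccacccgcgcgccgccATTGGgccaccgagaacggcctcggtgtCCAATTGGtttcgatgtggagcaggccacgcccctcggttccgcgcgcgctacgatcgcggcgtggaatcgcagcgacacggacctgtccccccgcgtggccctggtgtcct

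The sterol response element in the Hmgcs1 window began 137 bases before the start site. Promoter windows were found for 25 of the 32 members, 33 windows in all, and for 7 members none was used here. TCACNCCAC occurred in 1 of the 33 windows (3.03%), against 1.24% of 32851 windows of all genes. CCAAT occurred in 21 of the 33 (63.6%), against 37.4% of all windows, and GGGCGG in 25 of the 33 (75.8%), against 35.7%. In the Fasn window 2 CCAAT matches on opposite strands overlap. A match describes these letters only.

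Of the 32 members, 31 passed the filter on low counts and were tested with edgeR's quasi-likelihood test in 1 model of all 19 libraries with a batch term. A gene was called when its Benjamini-Hochberg adjusted p over the 12943 genes tested was under 0.05. Fold changes are log2, newborn over adult, each with its standard error (SE). Fads2, the delta-6 desaturase, did not pass. It had 160 counts in newborn PMN-MDSC, found in 5 of 5 libraries, against 16 counts in adult PMN-MDSC, found in 3 of 6. In newborn M-MDSC it had 75 counts in 4 of 5 libraries, and in the 3 adult M-MDSC libraries 0.

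In PMN-MDSC, 7 members were called higher in newborns (Mvd, Fdps, Fdft1, Msmo1, Hsd17b7, Ebp, Acly) and 6 lower (Lss, Cyp51, Sc5d, Insig1, Fasn, Scd1), and 18 were not called. That is 41.9% of the 31 tested, against a background of 47.7% of all genes tested (27.1% higher, 20.5% lower), so the share called is not a result about these genes. The members' median fold change was 0.13, against -0.05 over all genes. The all-gene calls split into 3514 higher and 2657 lower, and into 2756 higher and 3552 lower with upper-quartile scaling or 2982 and 3304 with DESeq2 size factors, which shifted the all-gene median to -0.29 and -0.22. None of the 13 member calls was lost or changed sign under either scaling, but each called 15 members, 7 higher and 8 lower. Newborn and adult libraries did not overlap for 9 members that were higher and 6 that were lower, where 28.4% and 23.0% of all genes did not overlap (51.4% in either direction). With the matched libraries summed, 9 of the 13 calls remained: Fdps, Msmo1, Ebp and Acly higher, and Cyp51, Sc5d, Insig1, Fasn and Scd1 lower.

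In M-MDSC, 2 members were called higher in newborns (Acly, Scd2) and 4 lower (Sc5d, Srebf2, Insig1, Scd1), and 25 were not called. That is 19.4% of the 31, against a background of 30.2% of all genes (15.9% higher, 14.3% lower). Their median fold change was -0.08, against 0.01 over all genes. All 6 calls remained with the matched libraries summed, and the calls over all genes went from 3910 to 2841. The summed pairs are all PMN-MDSC, so that setting reaches M-MDSC only through the shared model and tests these calls little. When only the M-MDSC libraries were fitted, Srebf2 and Scd1 alone stayed past the threshold. Newborn and adult libraries did not overlap for 2 members higher (background 12.8%) and 2 lower (10.4%; 23.1% in either direction). No library entered both age comparisons. Acly, called higher, and Sc5d, Insig1 and Scd1, called lower, were called in both, which is 30.8% of the 13 called in PMN-MDSC and 66.7% of the 6 called in M-MDSC. Over all genes, the 2726 called in both were 44.2% of those called in PMN-MDSC and 69.7% of those called in M-MDSC, so this overlap is not particular to the members. No member was called in opposite directions, as were 5.83% of the 2726.

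**Figure D1:**
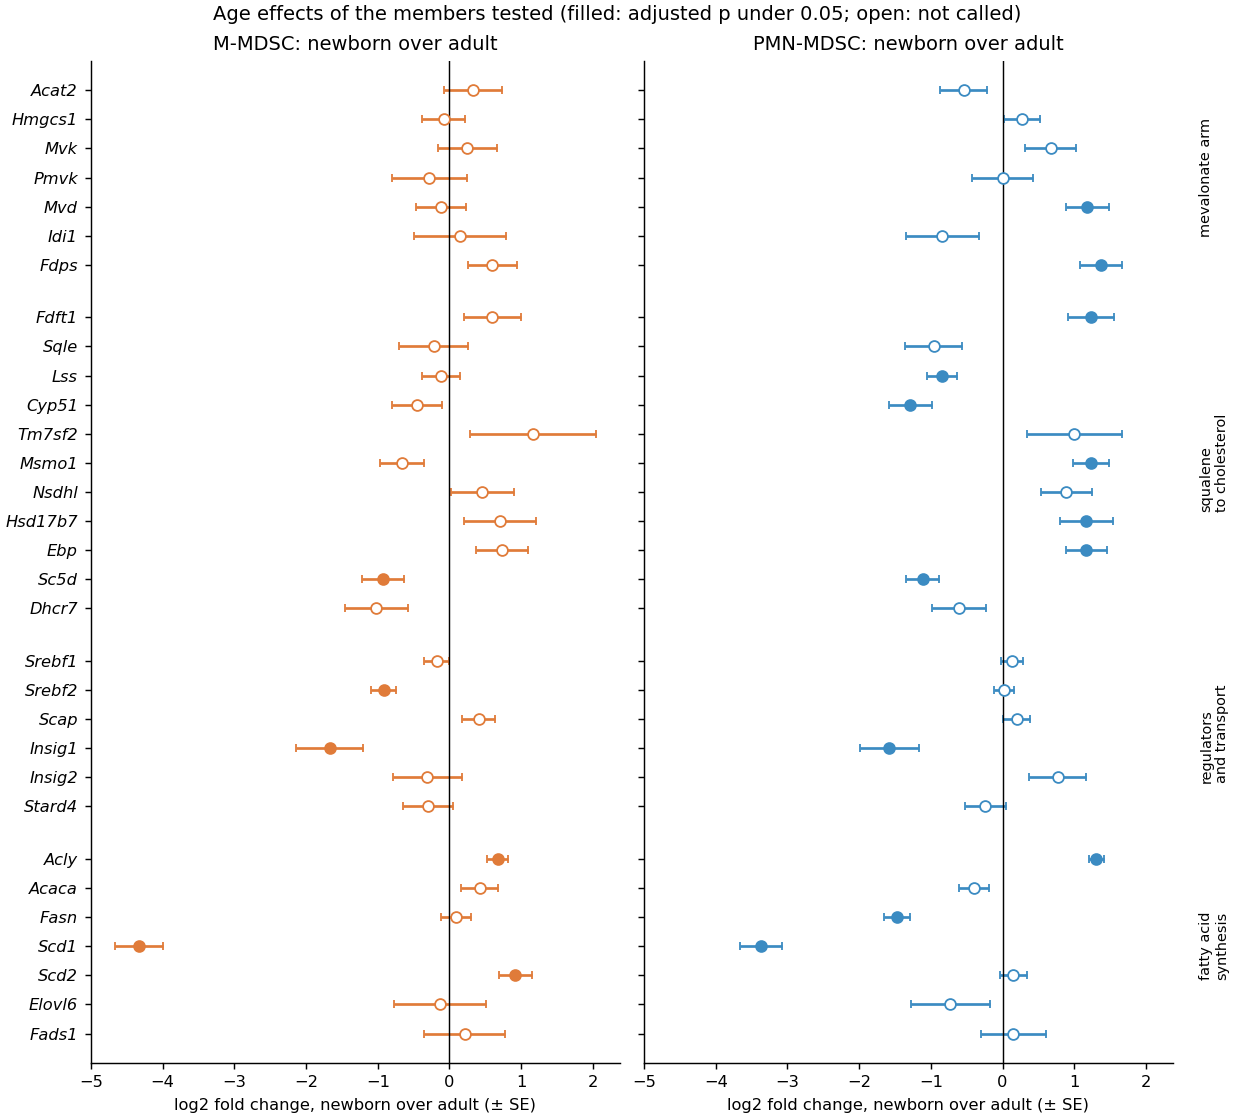
The age effect of each of the 31 tested members as log2 fold change, newborn over adult, with its SE (horizontal axis), in M-MDSC (left) and PMN-MDSC (right), ordered by role; filled points have an adjusted p under 0.05. Scd1 lies farthest from 0 in both cell types, at -4.33 and -3.37, and Fasn is filled in PMN-MDSC alone.

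**Figure D2:**
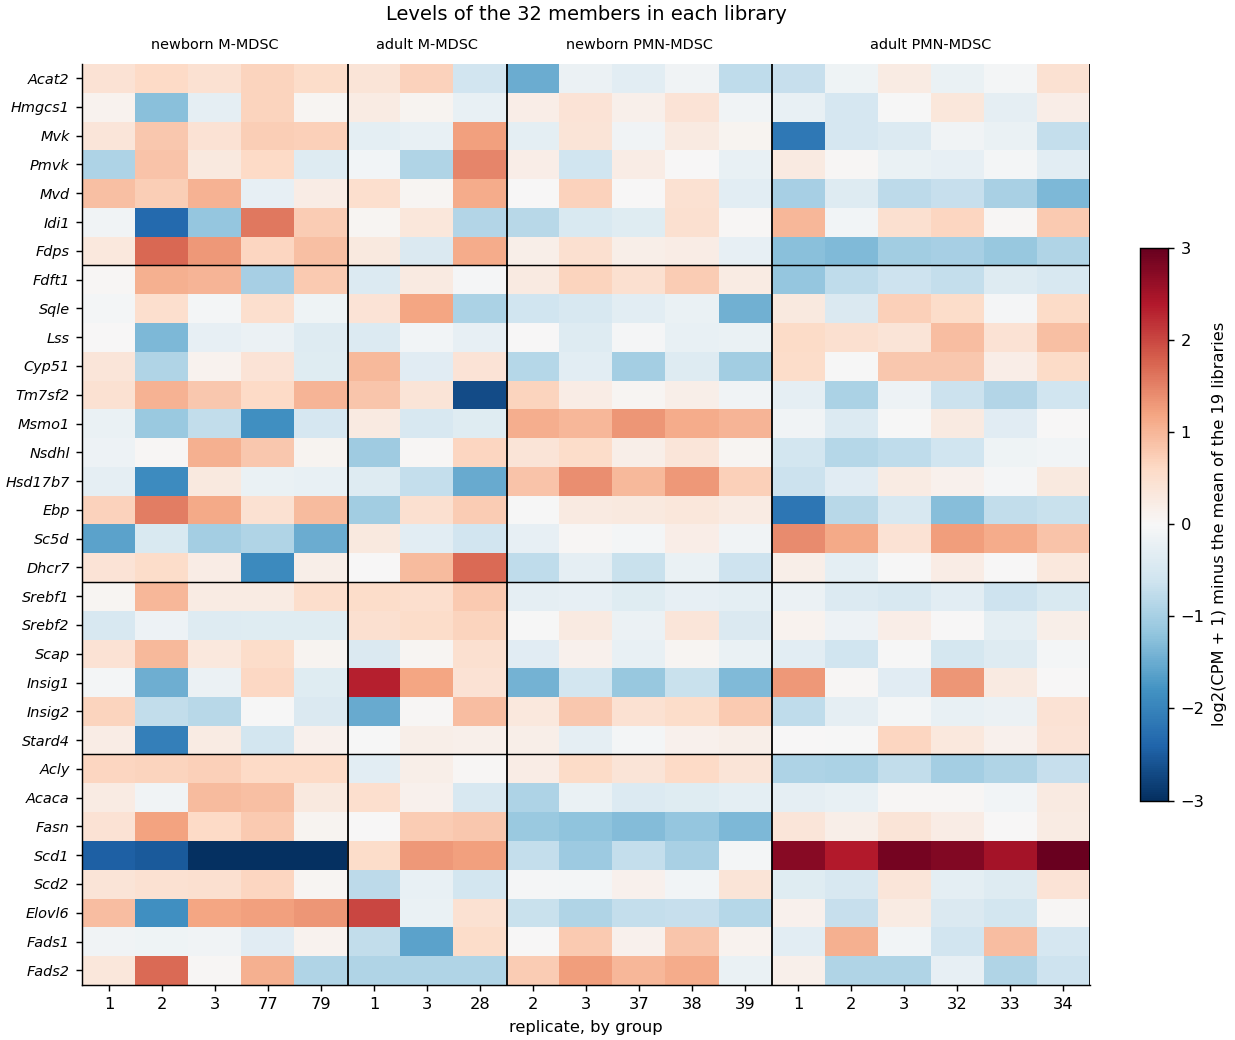
Each row is 1 of the 32 members and each column 1 of the 19 libraries, coloured by log2(CPM + 1) minus the gene's mean over all libraries; colours are capped at 3 in either direction. Scd1 is above its mean in all 9 adult libraries and below it in all 10 newborn libraries, least so in newborn PMN-MDSC replicate 39, while the sterol enzymes show no block of 1 direction.

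In the mevalonate arm, 2 of 7 enzymes rose in newborn PMN-MDSC and none fell (28.6% called, background 47.7%). Fdps, which makes farnesyl diphosphate, had 19.7, 24.2, 19.6, 20.3 and 14.4 CPM in the 5 newborn PMN-MDSC libraries, against a lowest value of 6.27, a median of 7.51 and a highest of 8.81 CPM in the 6 adult libraries. Every newborn library was above every adult library. The fold change was 1.37 ± 0.29 (SE, edgeR adjusted p = 0.000651), and 1.25 with the matched libraries summed (adjusted p = 0.042). The gene models of Fdps and Gm43738 share 26.7% of the exon bases of Fdps on the same strand, so its counts are uncertain in that part. Mvd, which decarboxylates mevalonate diphosphate, had 12.0, 19.9, 12.1, 16.9 and 9.51 CPM in newborn PMN-MDSC, against 4.11, 6.11 and 8.91 CPM (lowest, median, highest) in adult PMN-MDSC. The groups again did not overlap, and the fold change was 1.18 ± 0.30 (edgeR adjusted p = 0.00322). That call was lost with the matched libraries summed (adjusted p = 0.0611).

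Hmgcs1, which condenses acetyl-CoA with acetoacetyl-CoA, showed no call although it ranked first in the arm in PMN-MDSC by CPM per kilobase of exon (8.62 in newborns, 7.09 in adults). It had 38.8, 45.4, 37.7, 45.0 and 31.1 CPM in newborn PMN-MDSC and 23.4, 31.0 and 43.2 CPM (lowest, median, highest) in adult PMN-MDSC, and the groups overlapped (fold change 0.27 ± 0.25, edgeR adjusted p = 0.388). Neither did the kinases Mvk (0.67 ± 0.35) and Pmvk (0.00 ± 0.43), the thiolase Acat2 (-0.54 ± 0.33) or the isomerase Idi1 (-0.84 ± 0.51) pass the test. In M-MDSC none of the 7 was called (background 30.2%), and their fold changes lay between -0.28 (Pmvk) and 0.60 (Fdps). Idi1 varied widely among newborn M-MDSC, at 9.75, 1.28, 4.17, 33.4 and 18.6 CPM, against 11.0, 13.7 and 5.30 CPM in adult M-MDSC. The 3 newborn libraries of batch 1 held the 3 lower values, and the fold change was -1.24 within batch 1 and 2.33 within batch 2, where adult M-MDSC had 1 library.

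Between squalene and cholesterol, the enzymes of newborn PMN-MDSC moved in both directions: of 11 steps, 4 rose (Fdft1, Msmo1, Hsd17b7, Ebp) and 3 fell (Lss, Cyp51, Sc5d). That is 63.6% of the 11, against a background of 47.7% of all genes (27.1% higher, 20.5% lower). The difference from the background was not tested. The plot of cholesterol enzymes in pathway order shows both directions. With the matched libraries summed, 2 calls higher (Msmo1, Ebp) and 2 lower (Cyp51, Sc5d) remained. Fdft1, squalene synthase, had 16.4, 22.1, 19.3, 23.8 and 16.2 CPM in newborn PMN-MDSC, against 5.48, 8.10 and 10.1 CPM (lowest, median, highest) in adult PMN-MDSC, with no overlap (fold change 1.24 ± 0.32, edgeR adjusted p = 0.00393). The call was lost with the matched libraries summed (adjusted p = 0.0991) and in batch 2 alone (0.0912). Fdft1 shares 18.3% of its exon bases with Ctsb, a lysosomal protease gene on the other strand, and whether strand was used in counting is not given in the labels.

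Sqle, the oxygen-requiring epoxidase that follows, missed the threshold in the other direction (-0.96 ± 0.40, edgeR adjusted p = 0.0527). It had 5.47, 6.05, 6.87, 7.54 and 2.61 CPM in newborn PMN-MDSC and 6.27, 12.2 and 15.0 CPM (lowest, median, highest) in adult PMN-MDSC. Lss, which closes the ring to lanosterol, fell: newborn PMN-MDSC had 19.7, 14.7, 18.9, 16.6 and 16.9 CPM, against 25.8, 28.5 and 38.1 CPM in adult PMN-MDSC. All 5 newborn values lay under the lowest adult value (fold change -0.84 ± 0.21, edgeR adjusted p = 0.00334; 0.0872 with the matched libraries summed, 0.206 in batch 1 alone). The mean of Lss was 14.9 ± 4.72 CPM over the 5 newborn M-MDSC libraries and 16.2 ± 2.00 CPM over the 3 adult ones (SD).

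Cyp51 and Msmo1, which act in turn on the methyl groups of lanosterol, went opposite ways in PMN-MDSC. Cyp51, the lanosterol demethylase, had 9.30, 13.8, 8.20, 13.1 and 8.00 CPM in newborn PMN-MDSC, against 17.5, 26.5 and 31.5 CPM (lowest, median, highest) in adult PMN-MDSC (fold change -1.29 ± 0.30, edgeR adjusted p = 0.00151). Msmo1, the C4-methylsterol oxidase, had 54.2, 50.6, 63.3, 54.8 and 50.9 CPM in newborn PMN-MDSC, against 18.5, 23.8 and 29.8 CPM in adult PMN-MDSC (fold change 1.23 ± 0.25, edgeR adjusted p = 0.000437). Neither pair of groups overlapped. Both calls held with the matched libraries summed, at adjusted p = 0.0389 and 0.0355; within batch 1 alone Cyp51 missed the threshold (-1.10, adjusted p = 0.124). The printed windows of both genes hold CCAAT and GGGCGG boxes.

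Hsd17b7 and Ebp, a 3-ketosteroid reductase and a sterol isomerase further along, rose in newborn PMN-MDSC. Ebp had 32.8, 40.2, 40.3, 42.1 and 39.3 CPM, against 6.58, 18.7 and 23.4 CPM (lowest, median, highest) in adult PMN-MDSC, with no overlap (fold change 1.17 ± 0.29, edgeR adjusted p = 0.00292; 0.0315 with the matched libraries summed, 0.108 in batch 1 alone). Hsd17b7 had 14.2, 21.2, 15.6, 19.8 and 12.9 CPM in newborn PMN-MDSC, against 4.38, 7.68 and 9.26 CPM in adult PMN-MDSC (1.17 ± 0.37, edgeR adjusted p = 0.0141). Its groups did not overlap, but the call was lost with the matched libraries summed (adjusted p = 0.256), in batch 1 alone (0.0943) and without newborn replicate 3. Nsdhl, the C4 decarboxylase, did not overlap either, at a mean of 8.75 ± 1.26 CPM in newborn PMN-MDSC (SD, n = 5) and 4.66 ± 1.28 CPM in adult PMN-MDSC (SD, n = 6), and missed the threshold (edgeR adjusted p = 0.0518). Ebp and Nsdhl lie on the X chromosome, where the sex mix of the groups bears on the counts; its part was not tested. Tm7sf2, a sterol reductase with 12.1% of its exon bases shared with Vps51, was likewise apart and not called, with 6.55 ± 1.64 CPM in newborn and 3.40 ± 0.997 CPM in adult PMN-MDSC.

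Sc5d, the desaturase that makes the delta-5 bond before the last reduction, fell in newborns of both cell types. In PMN-MDSC it had 19.7, 24.2, 22.3, 26.9 and 21.8 CPM in newborns, against 31.8, 52.7 and 64.7 CPM (lowest, median, highest) in adults, with no overlap (fold change -1.11 ± 0.23, edgeR adjusted p = 0.000681). The call held in each of the 34 alternative settings. In M-MDSC it had 6.96, 16.7, 11.1, 12.1 and 7.69 CPM in newborns, against 29.1, 18.7 and 15.3 CPM in adults (fold change -0.93 ± 0.29, edgeR adjusted p = 0.0201). There the groups overlapped, since newborn replicate 2 was above adult replicate 28. The M-MDSC call was lost without adult replicate 1, without newborn replicate 1, with limma-voom and within either batch alone. Dhcr7, the last reductase, was not called in either cell type (-0.61 ± 0.38 in PMN-MDSC, -1.02 ± 0.44 in M-MDSC). The other 10 enzymes of this stretch were not called in M-MDSC, with fold changes from -1.02 (Dhcr7) to 1.16 (Tm7sf2). With Sc5d that is 9.09% called, against a background of 30.2%.

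**Figure D3:**
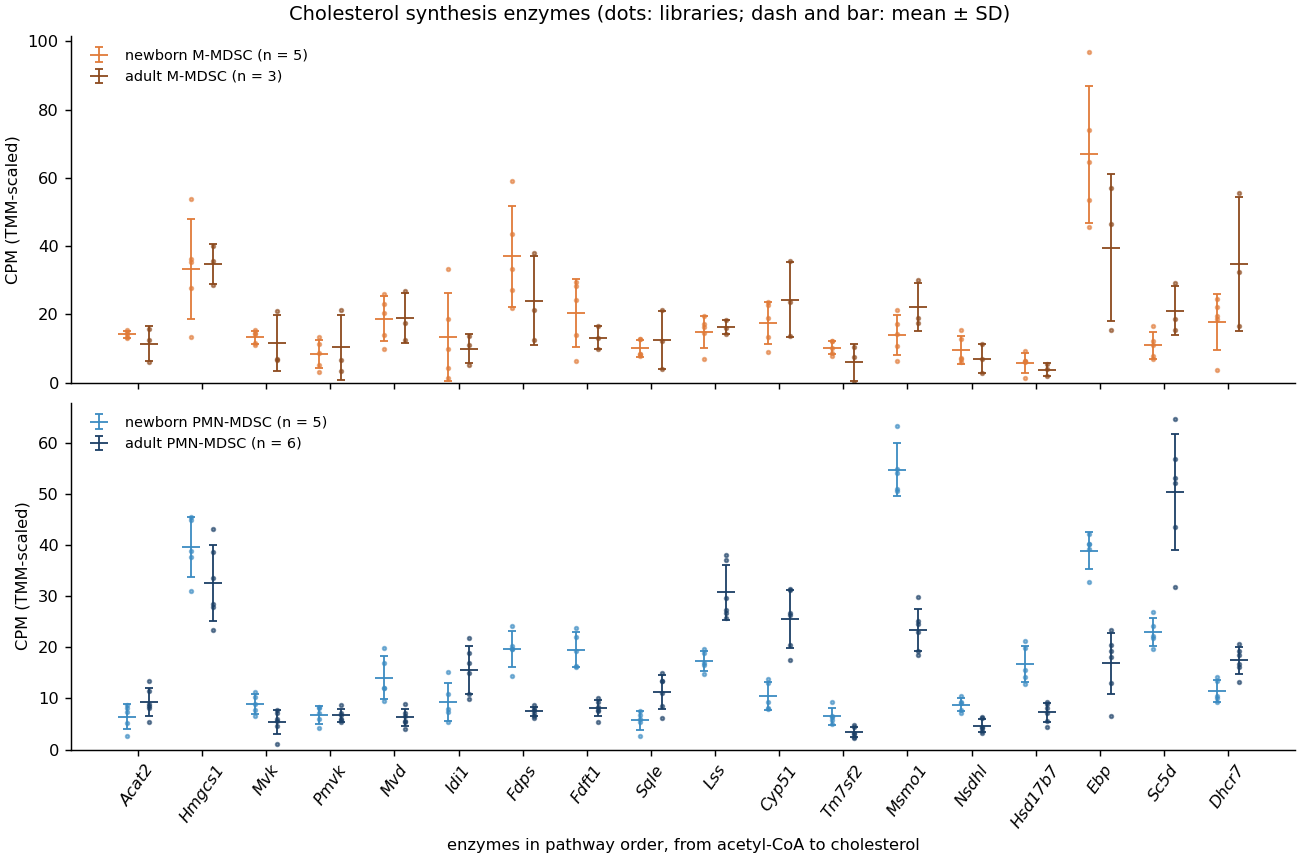
Levels in CPM (vertical axis, from 0) of the 18 cholesterol enzymes in pathway order, in newborn and adult M-MDSC (upper panel) and newborn and adult PMN-MDSC (lower panel); dots are libraries and dashes with bars are means ± SD. In PMN-MDSC, newborn values of Msmo1 and Ebp stand above adult values and those of Lss, Cyp51 and Sc5d below them, while most M-MDSC values overlap.

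Summed over the enzymes of each stretch, newborns and adults were closer than for the single genes called. The squalene-to-cholesterol enzymes summed to 191 to 234 CPM in newborn PMN-MDSC and 173 to 225 CPM in adult PMN-MDSC, and to 155 to 228 CPM in newborn M-MDSC and 182 to 217 CPM in adult M-MDSC. The mevalonate arm summed to 85.8 to 124 CPM in newborn and 70.0 to 97.0 CPM in adult PMN-MDSC, and to 118 to 166 CPM in newborn and 100 to 147 CPM in adult M-MDSC. Within each cell type the newborn and adult ranges overlap for both sums. Between the adult cell types the mevalonate sums did not overlap.

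Among the regulators, Insig1 was lower in newborns of both cell types and Srebf2 was lower in newborn M-MDSC. Insig1, which retains the SCAP-SREBP complex and is itself a sterol-regulated gene, had 15.9, 29.8, 19.4, 27.4 and 16.9 CPM in newborn PMN-MDSC, against 34.2, 49.1 and 111 CPM (lowest, median, highest) in adult PMN-MDSC. No newborn value reached the adult range, although the adult values were themselves spread, with 109 and 111, 45.2 and 52.9, and 34.2 and 44.4 CPM in the 3 matched pairs. The fold change was -1.58 ± 0.41 (edgeR adjusted p = 0.0036; 0.0464 with the matched libraries summed, 0.0806 in batch 1 alone).

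In M-MDSC, Insig1 had 41.8, 15.4, 38.5, 68.4 and 33.9 CPM in newborns, against 224, 101 and 59.8 CPM in adults. Newborn replicate 77 exceeded adult replicate 28, and adult replicate 1 held the highest value of all 19 libraries. The fold change was -1.67 ± 0.47 (edgeR adjusted p = 0.012). It was not called without adult M-MDSC replicate 1, in batch 2 alone (-0.19, adjusted p = 0.922) or when only the M-MDSC libraries were fitted. The homologue Insig2 was not called in either cell type, with fold changes of 0.77 ± 0.40 in PMN-MDSC and -0.31 ± 0.48 in M-MDSC.

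Srebf2, which encodes the SREBP that chiefly drives cholesterol genes, had 162, 206, 174, 177 and 176 CPM in newborn M-MDSC, against 318, 335 and 364 CPM in adult M-MDSC. The groups were far apart, at means of 179 ± 16.3 CPM (SD, n = 5) and 339 ± 23.1 CPM (SD, n = 3). The fold change was -0.92 ± 0.17 (edgeR adjusted p = 0.000367), and it was called in each of the 34 alternatives. In PMN-MDSC the values were 226, 275, 203, 292 and 170 CPM in newborns and 186, 238 and 263 CPM (lowest, median, highest) in adults, and the fold change was 0.02 ± 0.14 (edgeR adjusted p = 0.929). Srebf1, which encodes the SREBP of fatty acid genes, Scap, the escort of both SREBPs, and Stard4, a cytosolic sterol carrier, were not called by age in either cell type. Their fold changes ran from -0.24 (Stard4) to 0.20 (Scap) in PMN-MDSC and from -0.30 (Stard4) to 0.41 (Scap) in M-MDSC.

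**Figure D4:**
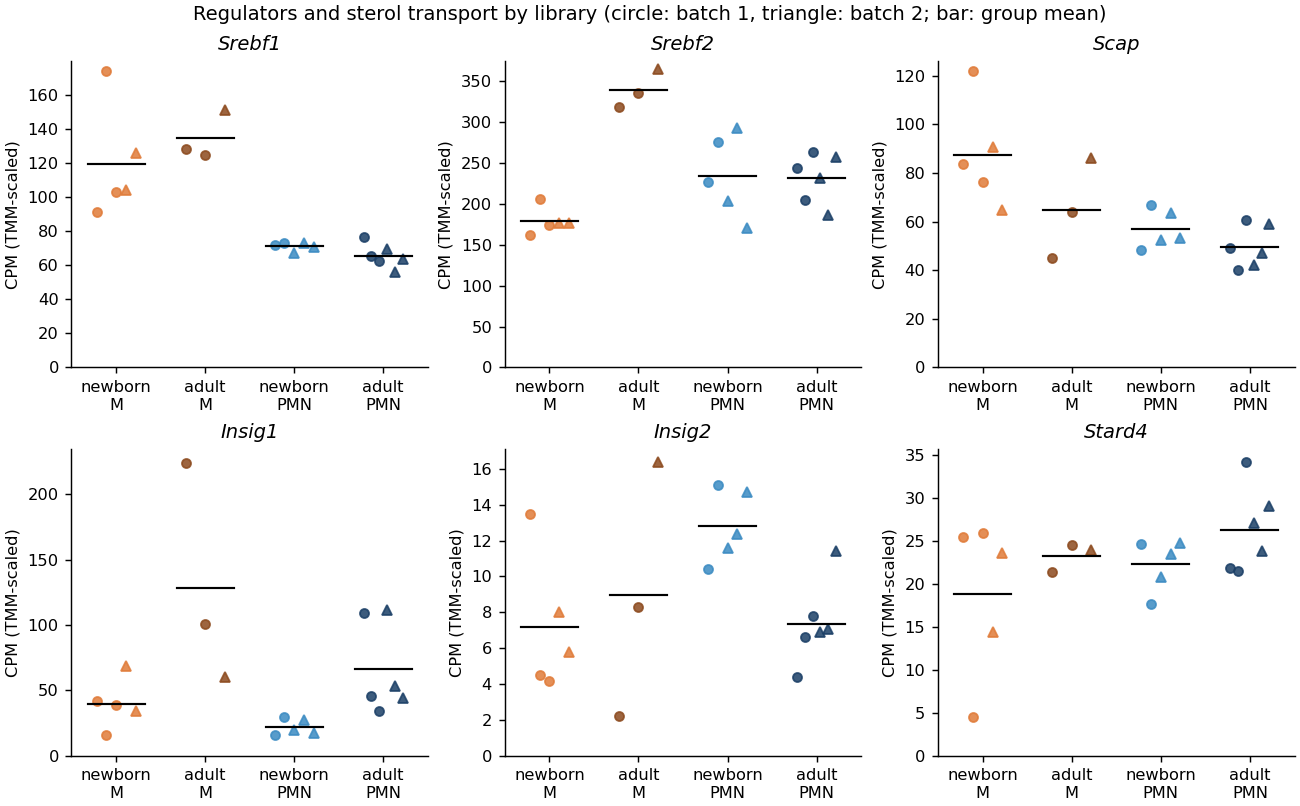
Levels in CPM (vertical axis, from 0) of 6 regulators and sterol carriers in each library, by group (newborn M-MDSC, adult M-MDSC, newborn PMN-MDSC, adult PMN-MDSC); circles are batch 1, triangles batch 2 and bars group means. Srebf2 stands at 318 to 364 CPM in adult M-MDSC, above all newborn M-MDSC libraries, and Insig1 spreads from 59.8 to 224 CPM in adult M-MDSC.

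Scd1 showed the widest age difference of the 31 members tested. This desaturase, which turns stearate into oleate, had 67.3, 51.5, 67.0, 56.0 and 106 CPM in newborn PMN-MDSC, against 581, 753 and 868 CPM (lowest, median, highest) in adult PMN-MDSC. In M-MDSC it had 19.5, 18.6, 12.5, 6.38 and 7.05 CPM in newborns, against 164, 274 and 260 CPM in adults. Every newborn library was below every adult library of either cell type. The newborn mean was 0.0947 of the adult mean in PMN-MDSC and 0.0549 of it in M-MDSC. The fold changes were -3.37 ± 0.29 in PMN-MDSC (edgeR adjusted p = 2.07e-08) and -4.33 ± 0.34 in M-MDSC (edgeR adjusted p = 4.98e-08), and both were called in every one of the 34 alternatives. Within batches they were -3.60 and -3.23 in PMN-MDSC and -3.71 and -5.22 in M-MDSC, for batches 1 and 2.

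Scd1 weighed heavily in the summed level of the 32 members. It made up 3.35 to 7.81% of that sum in newborn PMN-MDSC, against 35.9 to 40.1% in adult PMN-MDSC, and 0.372 to 1.24% in newborn M-MDSC, against 9.58 to 14.3% in adult M-MDSC. Its paralog Scd2, which lies beside it on chromosome 19 (mm10 44293674 to 44306864, with Scd1 at 44394455 to 44407879), moved differently. Scd2 had 95.2, 94.3, 107, 91.6 and 127 CPM in newborn PMN-MDSC and 69.3, 77.7 and 130 CPM (lowest, median, highest) in adult PMN-MDSC, which overlapped (fold change 0.15 ± 0.19, edgeR adjusted p = 0.524). In M-MDSC it had 127, 135, 136, 153 and 101 CPM in newborns, against 55.9, 83.8 and 66.2 CPM in adults, with no overlap (0.92 ± 0.23, edgeR adjusted p = 0.00557). That call was lost in batch 2 alone (0.98, adjusted p = 0.111), with limma-voom, without adult replicate 28 and newborn replicate 2 together, and when only the M-MDSC libraries were fitted.

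The ratio of Scd1 to Scd2 separated the ages in both cell types. It had a median of 0.625 in newborn PMN-MDSC (range 0.546 to 0.835), against 8.44 in adult PMN-MDSC (6.49 to 9.77), and of 0.0918 in newborn M-MDSC (0.0417 to 0.154), against 3.27 in adult M-MDSC (2.93 to 3.93). RSEM assigns reads that match both paralogs by estimate, and levels of this pair are uncertain to that extent.

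Acly, which makes cytosolic acetyl-CoA from citrate and so feeds both pathways, was higher in newborns of both cell types. It had 359, 459, 401, 466 and 401 CPM in newborn PMN-MDSC, against 151, 163 and 191 CPM (lowest, median, highest) in adult PMN-MDSC (fold change 1.31 ± 0.11, edgeR adjusted p = 2.26e-08, called in each of the 34 alternatives). In M-MDSC it had 480, 494, 508, 468 and 465 CPM in newborns, against 246, 347 and 317 CPM in adults (0.67 ± 0.14, edgeR adjusted p = 0.00122). The ages did not overlap in either cell type. In batch 2 alone the M-MDSC fold change was 0.61 (adjusted p = 0.0611).

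Fasn, the fatty acid synthase, fell in newborn PMN-MDSC although Acly, which supplies its substrate, rose. It had 47.6, 45.0, 42.0, 46.5 and 40.8 CPM in newborn PMN-MDSC, against 106, 124 and 137 CPM (lowest, median, highest) in adult PMN-MDSC. The 5 newborn values spanned a narrow range well below the adult one (fold change -1.47 ± 0.18, edgeR adjusted p = 2.02e-06, called in each of the 34 alternatives). In M-MDSC the values were 141, 242, 159, 181 and 110 CPM in newborns and 105, 179 and 183 CPM in adults, and the groups overlapped (0.09 ± 0.21, edgeR adjusted p = 0.802). Acaca, which makes malonyl-CoA for Fasn, was not called in PMN-MDSC (-0.40 ± 0.21) or M-MDSC (0.42 ± 0.26). The elongase Elovl6 and the delta-5 desaturase Fads1 were not called either, with SEs of 0.45 to 0.64 on the log2 scale at means of 2.48 to 11.3 CPM.

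**Figure D5:**
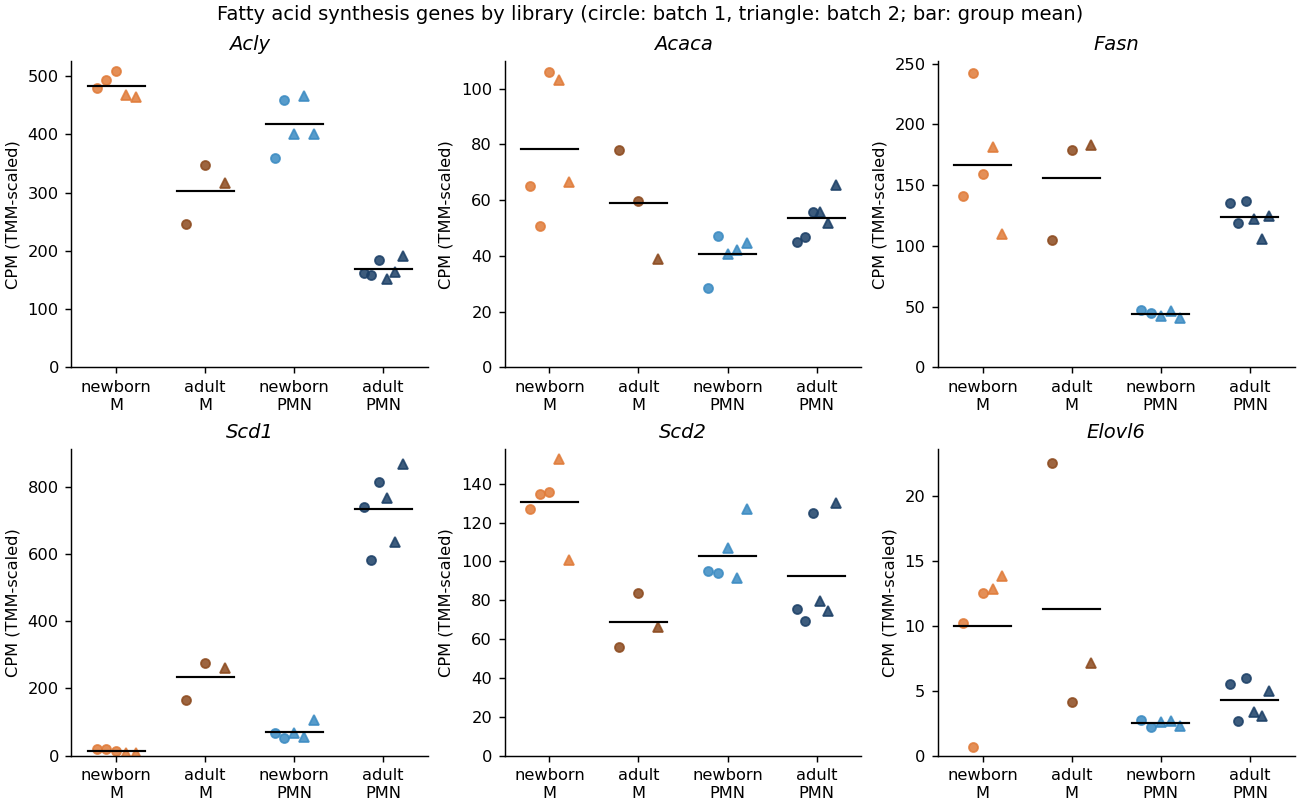
Levels in CPM (vertical axis, from 0) of 6 fatty acid synthesis genes in each library, by group (newborn M-MDSC, adult M-MDSC, newborn PMN-MDSC, adult PMN-MDSC); circles are batch 1, triangles batch 2 and bars group means. Scd1 is at 581 to 868 CPM in adult PMN-MDSC and at most 19.5 CPM in newborn M-MDSC, Acly is higher in newborns of both cell types, and the Fasn values of newborn PMN-MDSC, 40.8 to 47.6 CPM, lie below those of the other 3 groups.

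The age effects of 4 members differed between the cell types by edgeR's test of the difference itself (age effect in M-MDSC minus age effect in PMN-MDSC). Fasn was called higher, with a difference of 1.56 ± 0.28 (SE, adjusted p = 0.000719), and it was called in each of the 33 alternatives that gave one. Lower were Msmo1 (-1.89 ± 0.39, edgeR adjusted p = 0.00225), Srebf2 (-0.94 ± 0.22, edgeR adjusted p = 0.00505) and Acly (-0.64 ± 0.17, edgeR adjusted p = 0.0152). These 4 are 12.9% of the 31, against a background of 18.1% of all genes (6.61% higher, 11.5% lower). With upper-quartile scaling the split of member calls was 3 higher and 2 lower, and that of all genes 1157 and 1134 in place of 856 and 1488; Acly was then not called. With the matched libraries summed, Fasn (adjusted p = 0.0253) and Srebf2 (0.047) stayed past the threshold, and Msmo1 (0.0517) and Acly (0.0725) did not. Acly was also lost without adult M-MDSC replicate 3, and within single batches Msmo1 and Srebf2 had differences of -1.84 and -0.93 in batch 1 and -1.87 and -1.03 in batch 2, none of them called. For Scd1 the difference was -0.95 ± 0.42 and did not pass (edgeR adjusted p = 0.127).

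Between the cell types, newborn M-MDSC had more Fasn and less Scd1 and Msmo1 than newborn PMN-MDSC. Of the 31 members, 8 were called higher in newborn M-MDSC (Acat2, Fdps, Ebp, Srebf1, Scap, Acaca, Fasn, Elovl6) and 5 lower (Msmo1, Hsd17b7, Sc5d, Srebf2, Scd1), 41.9% against a background of 42.0% of all genes (18.7% higher, 23.4% lower). With upper-quartile scaling the split was 11 and 4, and that of all genes 2934 higher and 2528 lower in place of 2414 and 3023. The 2 groups did not overlap for 6 members higher and 4 lower, against 16.0% and 22.5% of all genes (38.4% in either direction). Fasn averaged 167 ± 49.3 CPM in newborn M-MDSC and 44.4 ± 2.90 CPM in newborn PMN-MDSC (SD, n = 5 each), without overlap (fold change 1.88 ± 0.19, edgeR adjusted p = 2.94e-07). Msmo1 averaged 14.0 ± 5.78 CPM in newborn M-MDSC and 54.8 ± 5.14 CPM in newborn PMN-MDSC, again without overlap (-2.0 ± 0.28, edgeR adjusted p = 1.14e-05). Scd1 was lower by a fold change of -2.62 ± 0.32 (edgeR adjusted p = 2.54e-06). With the matched libraries summed, 4 of the 13 calls remained, namely Msmo1, Sc5d, Fasn and Scd1, while the calls over all genes went from 5437 to 4321. Acat2, Fdps and Scap were also lost without newborn PMN-MDSC replicate 2, Fdps and Scap without newborn M-MDSC replicate 2, Fdps without newborn M-MDSC replicate 3, and Ebp, at an adjusted p of 0.0466, was called in 12 of 34 alternatives.

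Adult M-MDSC had more Srebf1 and Acly and less Scd1 than adult PMN-MDSC. There 7 members were called higher in M-MDSC (Mvk, Mvd, Fdps, Ebp, Srebf1, Srebf2, Acly) and 3 lower (Lss, Sc5d, Scd1), 32.3% against a background of 29.1% of all genes (16.7% higher, 12.5% lower). The groups did not overlap for 5 members higher and 3 lower, against 14.0% and 15.7% of all genes (29.7% in either direction). Srebf1 averaged 135 ± 14.4 CPM in adult M-MDSC (SD, n = 3) and 65.6 ± 7.04 CPM in adult PMN-MDSC (SD, n = 6), without overlap (fold change 1.04 ± 0.17, edgeR adjusted p = 0.000123). Acly was higher by 0.85 ± 0.13 (edgeR adjusted p = 7.33e-05) and Scd1 lower, at -1.67 ± 0.33 (edgeR adjusted p = 0.000799); both were called in each of the 34 alternatives. With the matched libraries summed, 6 of the 10 calls remained (Mvd, Fdps, Srebf1 and Acly higher, Sc5d and Scd1 lower). The calls of Mvk, Mvd, Fdps, Lss, Ebp and Srebf2 were lost without adult M-MDSC replicate 28, the sole batch 2 library of its group, and that fit called 6 members in all. Mvk, at an edgeR adjusted p of 0.0431, was called in 9 of 34 alternatives, and Ebp was also lost without adult M-MDSC replicate 3.

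The cell type comparisons share no group, but they too come from 1 model of all libraries and are not independent. Fdps, Ebp and Srebf1, higher in M-MDSC, and Sc5d and Scd1, lower, were called at both ages. Srebf2 was called in both with opposite signs, at -0.39 ± 0.15 in newborns (edgeR adjusted p = 0.0409) and 0.55 ± 0.16 in adults (edgeR adjusted p = 0.0155). The newborn call was lost with the matched libraries summed, under both other scalings, and without newborn PMN-MDSC replicate 38 or newborn M-MDSC replicate 1, 77 or 79, and the adult call with the matched libraries summed. The 6 shared genes are 46.2% of the 13 called in newborns and 60.0% of the 10 called in adults, near the 43.9% and 63.3% that the 2386 genes called at both ages make up over all genes. Of those 2386, 11.8% had opposite signs.

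Levels can be compared between genes only per length, here as mean CPM per kilobase of exon. On that scale Acly stood first in newborn M-MDSC (91.5), adult M-MDSC (57.5) and newborn PMN-MDSC (79.1), and Scd1 in adult PMN-MDSC (150), followed there by Srebf2 (32.2) and Acly (31.9). After Acly came Ebp (28.9), Srebf2 (24.9) and Scd2 (23.9) in newborn M-MDSC, Scd1 (47.6) and Srebf2 (47.2) in adult M-MDSC, and Srebf2 (32.4) and Scd2 (18.9) in newborn PMN-MDSC. Neighbours in this order differed by less than the spread between libraries for Srebf2 and Acly in adult PMN-MDSC, for Acly, Scd1, Srebf2 and Insig1 (41.4) in adult M-MDSC, for Ebp, Srebf2 and Scd2 in newborn M-MDSC, and for Scd2 and Ebp (16.9) in newborn PMN-MDSC, so no order is read among them. Fads2 was at or near the bottom in each group, between 0 and 0.735 CPM per kilobase, and Elovl6 was lowest in newborn PMN-MDSC at 0.386.

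Genes of 4 further lists next to these pathways were read in the main model alone. Among all genes tested, it called 27.1% higher and 20.5% lower in newborn PMN-MDSC, and 15.9% higher and 14.3% lower in newborn M-MDSC. The list counts were not repeated with the matched libraries summed or with other scaling. Over all genes, summing took the PMN-MDSC age calls from 6171 to 3729. Upper-quartile scaling split them into 2756 higher and 3552 lower. Of 15 fatty acid oxidation genes tested, 9 were called higher (60.0%) and 0 lower in newborn PMN-MDSC, and 8 higher (53.3%) and 0 lower in newborn M-MDSC, with median fold changes of 0.83 and 0.60, against -0.05 and 0.01 over all genes. Acadl, the long-chain acyl-CoA dehydrogenase, averaged 81.9 ± 6.80 CPM in newborn PMN-MDSC (SD, n = 5) and 34.4 ± 6.52 CPM in adult PMN-MDSC (SD, n = 6; fold change 1.26 ± 0.15, edgeR adjusted p = 9.04e-07), and rose by 1.51 ± 0.19 in newborn M-MDSC. Slc25a20, the acylcarnitine carrier of mitochondria, rose by 1.29 ± 0.19 in newborn PMN-MDSC and 0.63 ± 0.23 in newborn M-MDSC, and Etfb, an electron transfer flavoprotein subunit, by 1.09 ± 0.20 and 2.38 ± 0.26. Of 18 genes of fatty acid supply and elongation, 8 were called higher (44.4%) and 3 lower (16.7%) in newborn PMN-MDSC, and 6 higher (33.3%) and 2 lower (11.1%) in newborn M-MDSC. Acsl1, an acyl-CoA synthetase, rose by 2.30 ± 0.16 in newborn PMN-MDSC and 1.84 ± 0.20 in newborn M-MDSC, Tecr, the last reductase of the elongation cycle, by 2.23 ± 0.20 in newborn PMN-MDSC and 0.95 ± 0.25 in newborn M-MDSC. Mlxip, a glucose-sensing transcription factor gene, fell in both, with fold changes of -0.39 ± 0.11 in PMN-MDSC and -0.77 ± 0.13 in M-MDSC.

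Of 12 further sterol and isoprenoid genes, 2 were called higher and 4 lower in newborn PMN-MDSC (50.0% called, background 47.7%), and 3 higher and 1 lower in newborn M-MDSC (33.3%, background 30.2%). Lbr, a nuclear envelope protein with sterol C14-reductase activity like that of Tm7sf2, averaged 826 ± 45.5 CPM in newborn PMN-MDSC and 279 ± 13.9 CPM in adult PMN-MDSC, and 517 ± 106 CPM in newborn M-MDSC and 182 ± 16.0 CPM in adult M-MDSC. It rose in both, by 1.55 ± 0.11 (edgeR adjusted p = 2.61e-09) and 1.49 ± 0.14 (edgeR adjusted p = 5.19e-07). Dhdds, which begins dolichol synthesis from farnesyl diphosphate, rose by 2.09 ± 0.16 and 0.85 ± 0.19. Of 10 genes of the oxysterol receptors LXR, their targets and sterol efflux, 4 were called higher and 2 lower in newborn PMN-MDSC (60.0%, background 47.7%), and 2 higher and 3 lower in newborn M-MDSC (50.0%, background 30.2%). Nr1h2, an LXR gene, and Soat1, which esterifies cholesterol, rose in newborn PMN-MDSC by 1.16 ± 0.16 and 0.92 ± 0.11; in M-MDSC their fold changes were -0.03 ± 0.19 and 0.23 ± 0.13 and did not pass. In newborn M-MDSC the cholesterol exporter gene Abca1 fell to 18.7 ± 5.62 CPM, against 82.6 ± 9.37 CPM in adult M-MDSC (-2.16 ± 0.20, edgeR adjusted p = 2.5e-07), and Nr1h3, the other LXR gene, to 2.09 ± 2.48 CPM, against 18.3 ± 13.2 CPM (-2.96 ± 0.67, edgeR adjusted p = 0.00247). In PMN-MDSC Abca1 was also lower in newborns, at 101 ± 13.4 CPM against 219 ± 12.1 CPM in adults (-1.13 ± 0.16, edgeR adjusted p = 1.31e-05), and Nr1h3 was not called (-1.0 ± 0.54, edgeR adjusted p = 0.141). Whether these age effects differ between the cell types is not read from these values. Scd1, also a known LXR target, was described above with the desaturases.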

How the data were processed

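The deposited values are estimated counts for each gene, made with RSEM 1.2.3 on build mm10 per the submitters' processing notes, with no normalization, for 19 RNA libraries. DESeq2 is named there with no role. The aligner, annotation and strand setting were not given in the sources used here. The labels' protocols give 50 bp single-end reads and a total RNA kit. RSEM divides reads among related genes, so close paralogs are uncertain.

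The estimated counts were rounded and tested in R 4.3.3 with edgeR 4.0.16 (TMM scaling, filterByExpr by group, a quasi-likelihood model of 4 groups and batch, 14 residual degrees of freedom), which left 12943 genes. Adjusted p-values are Benjamini-Hochberg values over all genes tested, and under 0.05 was called. CPM are counts relative to the TMM-scaled library size; exon lengths and coordinates came from GENCODE M21 on mm10, which held 37570 of the 38887 identifiers. The table gives no symbol for 852 genes. SEs were derived from the fold change and F statistic. The model was tested on simulated data.

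Groups, batches and replicate numbers came from the labels. Same-numbered batch 1 libraries of different groups deviated together weakly (r from -0.0472 to 0.182 in 12 pairs, against -0.182 to 0.075 in 25 others). Highest were adult PMN-MDSC with adult M-MDSC, at 0.176 for replicates 1 and 0.182 for replicates 3. Centring within small groups makes these values mirror one another, so they cannot decide whether the numbers are pairs. The main model did not treat the numbers as pairing. Members, gene lists, matched libraries and alternatives were chosen with earlier results of these data known. Every member is named; from the 4 other pathway lists the 2 called genes with the smallest adjusted p in each age comparison are named. Of the listed genes, Erg28, Spring1, Ighd and Ahsp were not matched by symbol. The alternatives covered scaling, filters, DESeq2 1.42.0, limma 3.58.1, the batch term, a replicate block, single batches, summed matched libraries and each library left out.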

Additional observations from a re-analysis of the deposited data

Results flagged for a closer look

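Of 96 sets of a member in a group of 4 to 10 libraries, 2 had 1 library far from the others by Dixon's test, which chance gives in about 1 set in 20. Dhcr7 was at 3.61 CPM in newborn M-MDSC replicate 77, against 18.7 to 24.4 CPM in the other 4 newborn M-MDSC libraries. Elovl6 was at 0.641 CPM, a single count, in newborn M-MDSC replicate 2, against 10.2 to 13.8 CPM in the others. That library held the lowest value of its group for 9 of the 32 members and the highest for 14.

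For 4 members the age effect differed between the cell types by edgeR's test of the difference: Msmo1 (-1.89), Srebf2 (-0.94), Acly (-0.64) and Fasn (1.56), each as log2, M-MDSC minus PMN-MDSC. Msmo1 and Acly did not pass with the matched libraries summed.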

How the results depend on the processing

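Of 5239 recomputed member values, 4973 kept their side of the threshold, 106 passed it anew and 159 no longer passed it. In 209 of the 4973 the sign changed for a value called in neither setting. Of the values called in the main model or the alternative, 1 reversed: Tm7sf2 between adult cell types was -9.18 in batch 2 alone, where adult M-MDSC replicate 28 had no count of it. Counts of calls within 1.5 times the main count are not listed. The cause of the changes that follow was not tested, apart from settings that use fewer libraries.

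For the PMN-MDSC age effect (13 members and 6171 genes in the main model), limma-voom with quality weights called 20 members, a fit of the compared groups alone 22 members and 9548 genes, batch 1 alone 8 and 3760. The matched libraries summed gave 3729 genes, and leaving out their batch 1 partners 3740. For the M-MDSC age effect (6 and 3910), limma-voom called 2315 genes and the compared groups alone 2 members and 1267 genes. For the difference (4 and 2344), DESeq2 called 8 members, batch 1 alone 1 member and 408 genes, batch 2 alone 9 and 4254, the summed libraries 2 and 966, and without the partners 2 and 968. Between newborn cell types (13 and 5437), batch 1 alone called 3 members and 3231 genes, batch 2 alone 8 members, summed libraries 4 and without the partners 5. Between adult cell types (10 and 3772), limma-voom called 5 members and 1820 genes, batch 1 alone 2 and 1368, batch 2 alone 6457 genes, summed libraries 6 and 2411, without the partners 6 and 2407, and without adult M-MDSC replicate 28 6 and 2250.

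Leaving out 1 library at a time gave 12 to 16 members and 5459 to 7104 genes for the PMN-MDSC age effect, 5 to 9 and 3450 to 4340 for M-MDSC, 4 to 5 and 2021 to 2905 for the difference, 9 to 14 and 4777 to 6328 between newborn cell types and 6 to 12 and 2250 to 5036 between adult cell types. With a replicate block, 13 members were called for the PMN-MDSC age effect, 6 for M-MDSC, 5 for the difference (Acaca added), 12 between newborn cell types (Srebf2 lost) and 10 between adult ones. Leaving out adult M-MDSC replicate 28 and newborn M-MDSC replicate 2 together, chosen after seeing the data, gave 17, 5, 4, 14 and 9 members. Batch 1 depth limits members under about 3.29 CPM there.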
